A study of Mus musculus with 6 samples.

Results

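Interferon-stimulated genes are switched on in cells that sense viral nucleic acid or interferon. They were examined here in 4T1ch9 cells, a clone of the BALB/c mouse mammary carcinoma line 4T1, after knockdown of Stc1. The set held 35 genes, listed by name in 4 roles: sensors of foreign nucleic acid, signalling factors, enzymes and substrates of ubiquitin-like conjugation, and antiviral effectors. The names were chosen with earlier results of these data known. All probes annotated to these names were taken, and a probe was tested where its signal was above background (detection p under 0.05) on at least 2 of the 6 arrays. By that rule 22 of the 35 genes had a tested probe, with 29 tested probes in all, among 9754 genes and 18076 probes tested on the whole array.

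The cells had been transduced with lentivirus carrying either an shRNA (a short hairpin RNA that lowers its target transcript) against STC1 or a non-targeting shRNA (NT). Each virus was used at 6 µl and at 18 µl, and transduced cells were kept in puromycin for 5 to 6 days before total RNA was taken. The STC1 virus was measured on 2 Illumina bead arrays at 6 µl and 2 at 18 µl, and the NT virus on 1 array at each volume. All 6 arrays are therefore from transduced, selected cells, and untransduced cells were not analysed here. The labels name a single clone and do not say how many hairpins the STC1 virus carried or whether replicates were separate cultures. The p-values thus take in only the spread between these 6 samples, and that spread may be technical.

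Type I interferons bind a receptor that is coupled to the kinases TYK2 and JAK1, which pass the signal on by phosphorylation. STAT2 and IRF9 are subunits of the complex ISGF3, which binds interferon-stimulated response elements (ISRE) in the promoters of its target genes. Interferon gamma signals through the kinases JAK1 and JAK2, and its target genes carry the GAS element. In tumour cells the same genes can be expressed at a low standing level without added interferon.

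The promoters of the members are shown first, because ISGF3 acts through the ISRE in the promoters of its target genes. RefSeq windows from 250 bases before to 50 bases after the start (build GRCm38.p6) were found for 27 of the 35 members. Some members have more than 1 annotated start, and a gene was counted if any of its windows held the letters searched. As an ISRE core the letters GAAA, any 2 bases and GAAA again were searched on both strands; they occurred in a window of 16 of these 27 members, against 3.99% of 27025 genes with a window (3.44% of 32851 windows). As a GAS core the letters TTC, any 3 bases and GAA were searched, which read the same on both strands; they occurred in 6 of 27 members, against 9.55% of genes (8.3% of windows). In Bst2 a GAS match overlapped an ISRE match. Among members with a window, 5 of the 10 that rose in STC1 cells held the ISRE letters, as did 6 of the 9 tested members that did not pass and 5 of the 7 whose probes were not tested; these shares were not compared by a test. A match is a description of the letters and not evidence of binding. The 5 windows below, each written 5′ to 3′ on the strand of its gene with the ISRE matches in capitals, are those of Apol9a, Apol9b, Gbp2 and Gbp3, which rose, and of Isg15, which did not pass the test.
Apol9a, chr15:77410985-77411284, minus strand: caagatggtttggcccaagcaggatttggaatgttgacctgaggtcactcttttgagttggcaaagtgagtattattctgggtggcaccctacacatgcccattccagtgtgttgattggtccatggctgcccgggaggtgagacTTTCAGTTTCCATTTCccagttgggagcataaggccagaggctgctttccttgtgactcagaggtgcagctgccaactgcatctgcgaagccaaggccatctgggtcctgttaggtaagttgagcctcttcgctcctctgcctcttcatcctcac
Apol9b, chr15:77728871-77729170, plus strand: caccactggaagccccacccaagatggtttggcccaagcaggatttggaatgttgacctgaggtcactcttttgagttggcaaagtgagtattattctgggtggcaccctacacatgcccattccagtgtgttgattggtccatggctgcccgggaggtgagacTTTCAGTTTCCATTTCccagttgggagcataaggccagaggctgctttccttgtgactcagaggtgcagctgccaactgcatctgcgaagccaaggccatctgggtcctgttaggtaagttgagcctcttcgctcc
Gbp2, chr3:142620413-142620712, plus strand: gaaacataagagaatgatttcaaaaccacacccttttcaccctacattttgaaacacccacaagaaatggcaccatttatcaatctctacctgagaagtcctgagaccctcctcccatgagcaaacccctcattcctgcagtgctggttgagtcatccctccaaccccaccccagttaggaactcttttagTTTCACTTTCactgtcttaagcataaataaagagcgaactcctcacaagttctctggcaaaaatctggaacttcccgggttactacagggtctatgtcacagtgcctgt
Gbp3, chr3:142559794-142560093, plus strand: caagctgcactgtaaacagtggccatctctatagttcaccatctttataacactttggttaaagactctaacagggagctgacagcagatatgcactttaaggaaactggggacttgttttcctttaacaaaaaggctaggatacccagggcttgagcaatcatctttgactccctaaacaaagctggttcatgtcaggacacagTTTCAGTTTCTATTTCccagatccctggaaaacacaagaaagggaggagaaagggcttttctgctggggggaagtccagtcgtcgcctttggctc
Isg15, chr4:156200769-156201068, minus strand: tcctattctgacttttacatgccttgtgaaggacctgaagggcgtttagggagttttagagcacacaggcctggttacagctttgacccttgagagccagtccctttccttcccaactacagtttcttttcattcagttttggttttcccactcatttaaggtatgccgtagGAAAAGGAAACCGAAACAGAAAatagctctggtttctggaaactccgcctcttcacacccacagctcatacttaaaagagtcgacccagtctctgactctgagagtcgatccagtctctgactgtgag
The capitals in Apol9a and Apol9b are the same pair of overlapping matches, GAAACTGAAA and GAAATGGAAA, read from the opposite strand. They end 90 bases before the Apol9a start and 71 bases before the Apol9b start of these windows. Each of the genes has another annotated start, from which the same matches end 44 bases (Apol9a) and 22 bases (Apol9b) away. The Apol9a and Apol9b windows shown share 281 bases without a difference, and the shift between their annotated starts accounts for the rest of their 300 bases. The other pairings of their windows shared runs of 232 to 278 bases. Gbp2 holds 1 match, GAAAGTGAAA, which ends 50 bases before the start. Gbp3 holds the overlapping matches GAAACTGAAA and GAAATAGAAA, which end 30 bases before the start of the window shown. The window of its other annotated start holds no match. Isg15 holds 3 overlapping matches, GAAAAGGAAA, GAAACCGAAA and GAAACAGAAA, the last ending 57 bases before the start. Of the genes described below, Eif2ak2 holds GAAAACGAAA after its start, at positions 19 to 28. Ifit2 holds the GAS letters TTCCTGGAA, ending 233 bases before 1 annotated start, and the window of its other annotated start holds no match.

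Mean raw intensity per array was 253.6 to 310.6 on the STC1 arrays and 228.3 to 253.1 on the NT arrays, and 16252 to 17507 probes on the STC1 arrays and 16344 to 16494 on the NT arrays were above background, of 45281. Pearson's r across tested probes, which are not independent replicates, was 0.9939 within STC1 at 6 µl, 0.9914 within STC1 at 18 µl and 0.9931 within NT. Stc1 had log2 intensities of 7.68 and 7.87 with 6 µl of STC1 virus and 8.05 and 7.74 with 18 µl of it, against 9.05 and 9.32 on the NT arrays, a difference of -1.35 (SE 0.14, limma adjusted p = 0.0025). Here and below, values of the STC1 arrays are listed from 6 µl to 18 µl, and those of the NT arrays likewise. Of 7 epithelial markers, Krt8, Krt18 and Krt7 were detected on all 6 arrays, Epcam and Krt19 on none, and the summed raw signal was 8550 to 14400 on the STC1 arrays and 9540 to 10800 on the NT arrays. The leukocyte genes Ptprc, Cd3g, Itgam, Adgre1 and Tyrobp, the endothelial genes Pecam1, Cdh5, Tek, Emcn and Vwf, and the fibroblast genes Col1a1, Col1a2, Col3a1, Dcn, Lum and Thy1 were detected on no array. From the same lists, the fibroblast gene Pdgfra was detected on all 6 arrays. The leukocyte genes Cd3e and Csf1r and the endothelial gene Kdr met the detection rule. Pdgfra, Cd3e, Csf1r and Kdr did not pass in either direction. Summed over all listed markers, raw signal on the STC1 arrays against the NT arrays was 467 to 509 against 438 to 463 for the 9 leukocyte markers with a probe, 353 to 419 against 340 to 377 for the 7 of endothelium, and 1270 to 1970 against 1200 to 1230 for the 8 of fibroblasts. Among the last Pdgfrb passed as higher (at least 1.48-fold), and its probe met the detection rule only through the STC1 arrays. The part of these markers in the results below was not tested.

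In STC1-shRNA cells 11 of the 22 tested interferon-stimulated genes rose relative to NT cells and none fell. The 11 were the effectors Apol9a, Gbp2, Ifit2, Oasl2, Apol9b, Samd9l, Parp14 and Gbp3, the ISG15-activating enzyme Uba7, the signalling factor Irf9 and the sensor Eif2ak2, with rises of 1.34-fold to 2.5-fold. The test was limma on log2 intensity, 4 STC1 arrays against 2 NT arrays, with p adjusted by the Benjamini-Hochberg method over all 18076 probes and a threshold of 0.05; adjusted p among the 11 was 0.00207 to 0.0482 and the SE was 0.11 to 0.19. Across all genes tested, 4.45% passed as higher and 3.72% as lower. The median log2 difference was 0.49 over the 22 members, against 0.033 over all genes. Individual members ranged from -0.19 to 1.32, and 20 of 22 lay above 0, against 55.3% of all genes. Of the 29 tested probes, 13 passed as higher and none as lower, against 3.81% and 3.98% of all probes. In 14 of the 22, all 4 STC1 arrays lay above both NT arrays, against 21.9% of all genes, and in none did all 4 lie below both, against 16%. These tallies take in Dhx58, whose tested probes met the detection rule only through the STC1 arrays, where they are high. Dhx58 is among the 20 above 0 and the 14 without overlap, and a probe of it is among the 13. It is not among the 11 that rose. Because the members were chosen with earlier results of these data known, their excess over all genes is not independent evidence and was not tested. Probes of bulk cultures cannot tell more expressing cells apart from more RNA per cell.

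The NT side rests on 2 arrays. Without the NT array at 6 µl 5 members passed, against 0.564% of all genes, and without the NT array at 18 µl 5 passed, against 0.615%; these 5 were Apol9a, Gbp2, Ifit2, Apol9b and Uba7, which also passed with any 1 STC1 array left out. With 1 NT array the spread comes from the STC1 groups alone and the lone array is assumed to vary like them, so these passes say nothing of the spread between NT arrays. Without the second STC1 array at 6 µl 6 members passed, against 0.851% of all genes. These 6 were the 5 named above and Dhx58. The tested probes of Dhx58 met the detection rule only through the STC1 arrays, and Dhx58 is not counted among the members that rose. The median of the 22 stayed between 0.47 and 0.62 with any 1 array left out. Where arrays were scaled to the median over all probes in place of quantile normalisation, 15 members passed as higher, against 13.3% of all genes, but the median of all genes moved up to 0.182 and 85.5% of all genes that passed were higher, against 54.5% in the main test; the members' median was then 0.44 above that of all genes.

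**Figure D1:**
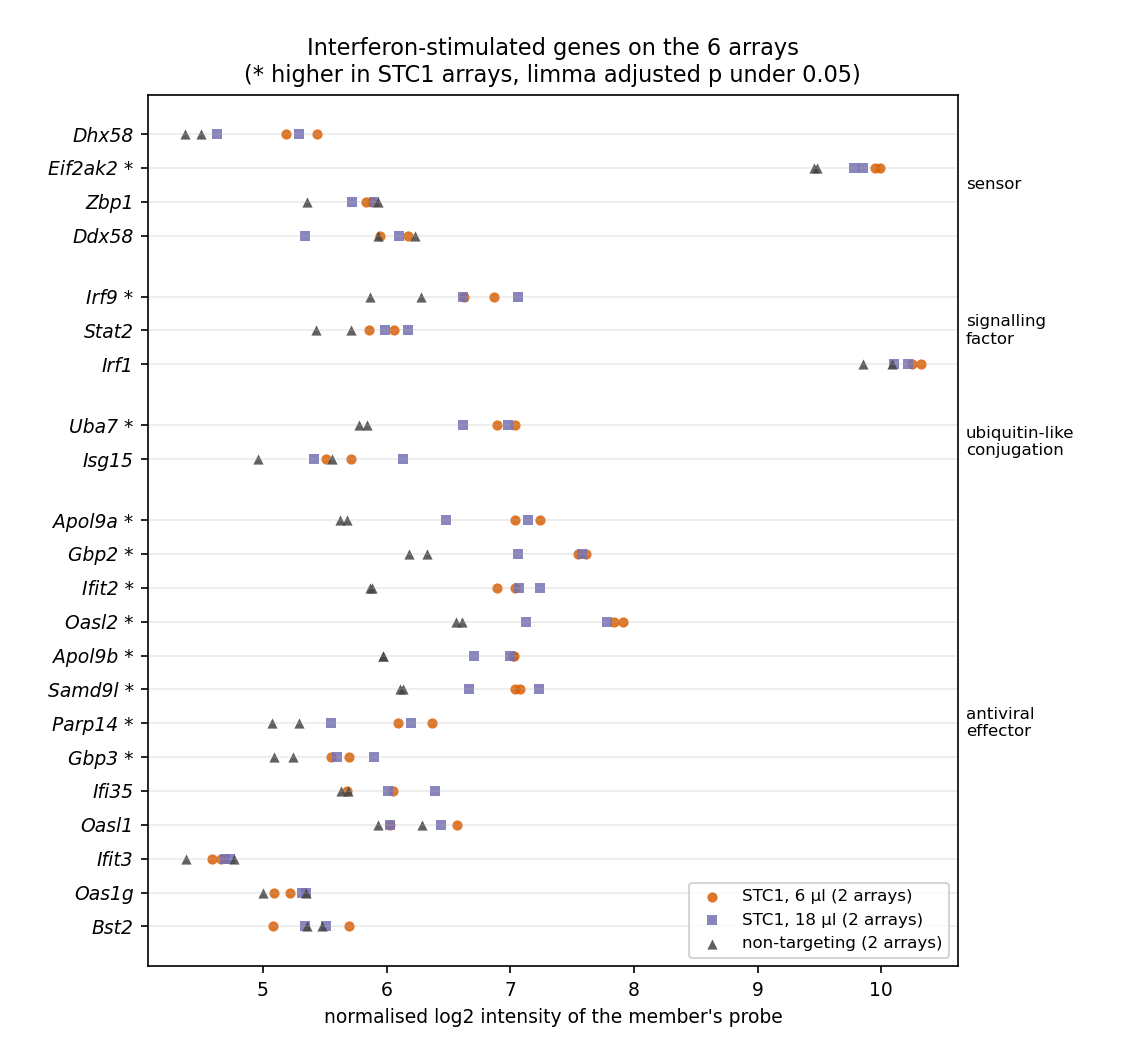
Log2 intensity of the tested probe that stands for each of the 22 members on the 4 STC1 arrays and the 2 NT arrays, 1 point per array, grouped by role. For the 11 genes that passed (adjusted p under 0.05), every STC1 point lies above both NT points; levels of different genes are not comparable, because each comes from its own probe.

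Sensors recognise viral RNA or DNA in the cytoplasm. Of 5 listed, 4 were tested, 1 rose and none fell (4.45% and 3.72% of all genes), with a median difference of 0.3. That median takes in Dhx58, whose probes met the detection rule only through the STC1 arrays. Eif2ak2 encodes PKR, the kinase that halts translation when it binds double-stranded RNA. Its log2 intensity was 9.99 and 9.95 with 6 µl of STC1 virus and 9.85 and 9.78 with 18 µl of it, against 9.48 and 9.46 on the NT arrays. The groups did not overlap and the rise was 1.34-fold (log2 difference 0.42, SE 0.11, limma adjusted p = 0.0482). It was the smallest of the 11 rises, and it did not pass on leaving out any 1 of the 6 arrays (adjusted p up to 0.211), although the log2 difference kept between 0.4 and 0.44.

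Dhx58 encodes LGP2, a helicase related to RIG-I that modulates its signal. It read 5.19, 5.44, 4.63 and 5.29 on the STC1 arrays, with the third value from the first array at 18 µl, against 4.37 and 4.50 on the NT arrays. Signal was above background on 3 STC1 arrays and on no NT array. The log2 difference of 0.71 (SE 0.18) just missed the threshold in limma (adjusted p = 0.0515), and because NT signal was at background the size is a bound of at least 1.31-fold. The other tested Dhx58 probe passed, at 5.00 and 5.09, and 5.25 and 5.20, on the STC1 arrays against 4.45 and 4.38 on the NT arrays (0.72, SE 0.11, adjusted p = 0.00883, likewise at least 1.31-fold). Both probes met the detection rule only through the STC1 arrays, where they are high, so these p-values are conditioned on that difference. Dhx58 is not counted among the members that rose. Where 1 array was left out, the probe that was brighter in that fit stood for Dhx58, and it was not always the first. Represented in this way, Dhx58 passed with any 1 STC1 array left out (limma adjusted p = 0.0157 to 0.0454). It did not without either NT array. How the first probe alone depends on single arrays was not tested.

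Ddx58, which encodes RIG-I itself, read 5.95, 6.17, 5.34 and 6.10 on the STC1 arrays and 5.93 and 6.23 on the NT arrays. These groups overlapped, and the difference of -0.19 (95% interval -0.66 to 0.28) did not pass (limma adjusted p = 0.599). Zbp1, a sensor of left-handed nucleic acid, read 5.88, 5.83, 5.72 and 5.90 on the STC1 arrays and 5.36 and 5.93 on the NT arrays, so that the NT arrays lay on either side of the STC1 arrays (0.19, interval -0.18 to 0.56). No probe of Ifih1, the gene of the sensor MDA5, passed the detection rule.

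The signalling factors carry the interferon signal to the nucleus. Of 4 listed, Irf1, Irf9 and Stat2 were tested, and all 3 had every STC1 array above both NT arrays (21.9% of all genes), but only Irf9 passed as higher (4.45% of all genes); the median difference was 0.45. Irf9, the DNA-binding subunit of ISGF3, read 6.87 and 6.63 with 6 µl of STC1 virus and 6.62 and 7.06 with 18 µl of it, against 6.28 and 5.87 on the NT arrays. The 1.65-fold rise (0.72, SE 0.17, limma adjusted p = 0.0392) passed on leaving out the first STC1 array at 18 µl (adjusted p = 0.0305) and not on leaving out any other (adjusted p up to 0.218), with a difference of 0.52 to 0.92 over the 6 fits. Stat2, the ISGF3 subunit that carries the activation domain, read 5.86, 6.06, 6.17 and 5.99 on the STC1 arrays, against 5.71 and 5.43 on the NT arrays (0.45, SE 0.13, adjusted p = 0.0758).

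Irf1, a factor induced early by interferon gamma, read 10.25, 10.32, 10.10 and 10.22 on the STC1 arrays, against 10.09 and 9.85 on the NT arrays. The lowest STC1 array was 10.10 and the highest NT array 10.09, and the difference of 0.25 did not pass (SE 0.12, limma adjusted p = 0.227). Its other 3 tested probes disagreed in sign, at 0.34, -0.25 and -0.21. Irf7, the factor that amplifies type I interferon production, had no probe above background on 2 arrays.

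In ubiquitin-like conjugation, the small protein ISG15 is attached to other proteins through UBA7 and removed by USP18. Uba7, the activating enzyme, rose 2.11-fold. It read 6.89 and 7.04 with 6 µl of STC1 virus and 6.62 and 6.98 with 18 µl of it, against 5.78 and 5.84 on the NT arrays. The lowest STC1 array was thus well clear of the higher NT array (log2 difference 1.07, SE 0.13, limma adjusted p = 0.00487), and the adjusted p was at most 0.0458 with any 1 array left out. Isg15, which encodes the conjugated protein, read 5.51, 5.71, 5.41 and 6.13 on the STC1 arrays and 5.56 and 4.96 on the NT arrays. Here the groups overlapped: the NT array at 6 µl lay above both first arrays of the STC1 groups. The difference of 0.43 had an interval of -0.08 to 0.94 (adjusted p = 0.265) and ranged from 0.14 to 0.73 with 1 array left out. Usp18 was detected on 1 STC1 array and on no NT array, and was not tested.

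The antiviral effectors act directly on viral RNA, translation, membranes or vacuoles. Of 13 tested effectors 8 rose and none fell (4.45% and 3.72% of all genes), with a median log2 difference of 0.87. In those 8, all 4 STC1 arrays lay above both NT arrays (21.9% of all genes), and in the other 5 the groups overlapped.

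Apol9a and Apol9b are near-identical relatives of the apolipoprotein L family on the same chromosome. Apol9a had the largest difference of the 22 members: 7.04 and 7.24 with 6 µl of STC1 virus and 6.48 and 7.14 with 18 µl of it, against 5.68 and 5.62 on the NT arrays. That is a 2.5-fold rise (1.32, SE 0.18, limma adjusted p = 0.00628). Apol9b read 7.02 and 7.03 with 6 µl of STC1 virus and 6.71 and 7.0 with 18 µl of it, against 5.97 on both NT arrays, a 1.97-fold rise (0.97, SE 0.12, adjusted p = 0.00481). In both genes every STC1 array lay above both NT arrays (21.9% of all genes), which are too few to measure their own spread. Each gene had its own probe, but transcripts of so close a pair may bind either one. The values are therefore not taken as independent of each other, although every tally here counts Apol9a and Apol9b as 2 genes.

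Gbp2 and Gbp3 encode guanylate-binding proteins, GTPases that gather on the vacuoles of intracellular pathogens. Gbp2 read 7.55 and 7.61 with 6 µl of STC1 virus and 7.06 and 7.58 with 18 µl of it, against 6.18 and 6.33 on the NT arrays. It rose 2.29-fold (1.20, SE 0.16, limma adjusted p = 0.00567). Gbp3 rose less, 1.44-fold: 5.55, 5.70, 5.90 and 5.60 on the STC1 arrays, against 5.09 and 5.24 on the NT arrays (0.53, SE 0.13, adjusted p = 0.0444). Its second probe gave 0.52 and did not pass (adjusted p = 0.0695), and with 1 array left out the main probe passed only without the second STC1 array at 18 µl (adjusted p = 0.0484, up to 0.246 without any other). The call was also lost with no background correction (0.24, adjusted p = 0.0757), median scaling (0.0542), the authors' values (0.29, adjusted p = 0.0606), and no filter on dim probes (0.0774).

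Ifit2 encodes a tetratricopeptide-repeat protein that restrains translation of viral RNA. It had the smallest adjusted p of the members. It read 7.04 and 6.89 with 6 µl of STC1 virus and 7.07 and 7.24 with 18 µl of it, against 5.88 and 5.87 on the NT arrays, a 2.27-fold rise (1.18, SE 0.11, limma adjusted p = 0.00207). A second Ifit2 probe rose too, with 6.49, 6.60, 6.87 and 7.02 on the STC1 arrays against 5.21 and 5.71 on the NT arrays (1.28, SE 0.15, adjusted p = 0.00419). Ifit3, a relative that acts with Ifit2 and has a near-identical copy in the mouse genome, was detected on 1 STC1 array and 1 NT array. Its values of 4.59, 4.66, 4.69 and 4.73 on the STC1 arrays lay between the 2 NT arrays, at 4.38 and 4.77 (0.09, adjusted p = 0.703).

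The Oas family senses double-stranded RNA and makes the second messenger that activates RNase L; the mouse Oasl genes are relatives of it. Oasl2 read 7.84 and 7.91 with 6 µl of STC1 virus and 7.13 and 7.78 with 18 µl of it, against 6.56 and 6.61 on the NT arrays. It rose 2.11-fold (1.08, SE 0.17, limma adjusted p = 0.0112). It did not pass without the second STC1 array at 6 µl (adjusted p = 0.0517) or without the NT array at 6 or 18 µl (adjusted p = 0.077 and 0.0637). Oasl1 read 6.03, 6.57, 6.03 and 6.44 on the STC1 arrays and 5.93 and 6.29 on the NT arrays, which overlap (0.16, adjusted p = 0.649). Its second probe did not overlap between the groups and gave 0.46 without passing (adjusted p = 0.0959). Oas1g, a close relative of Oas1a, read 5.22, 5.09, 5.32 and 5.35 on the STC1 arrays and 5.00 and 5.35 on the NT arrays (0.08, adjusted p = 0.756). None of Oas1a, Oas2 and Oas3 was above background on 2 arrays.

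Samd9l encodes a large cytoplasmic protein that inhibits translation in virus-infected cells. It read 7.04 and 7.08 with 6 µl of STC1 virus and 6.67 and 7.23 with 18 µl of it, against 6.11 and 6.13 on the NT arrays. Its rise was 1.85-fold (0.88, SE 0.16, limma adjusted p = 0.0168). Parp14, an ADP-ribosyltransferase of immune signalling, read 6.09 and 6.37 with 6 µl of STC1 virus and 5.55 and 6.20 with 18 µl of it, against 5.29 and 5.07 on the NT arrays. It rose 1.83-fold (0.87, SE 0.19, adjusted p = 0.0298). Neither passed without the NT array at 6 or 18 µl (adjusted p = 0.104 and 0.0842 for Samd9l, 0.104 and 0.15 for Parp14) or without the second STC1 array at 6 µl (0.0644 and 0.0981), and Parp14 did not without the first STC1 array at 6 µl (0.0564).

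The remaining 2 tested effectors did not pass. Ifi35, a leucine-zipper protein, read 6.05, 5.68, 6.01 and 6.39 on the STC1 arrays and 5.63 and 5.69 on the NT arrays (0.37, SE 0.15, limma adjusted p = 0.173). Bst2, or tetherin, which holds budding virus at the cell surface, read 5.70, 5.08, 5.34 and 5.51 on the STC1 arrays and 5.48 and 5.36 on the NT arrays. Its difference of -0.02 had an interval of -0.40 to 0.37, so a change of the size seen in Apol9a, Gbp2 or Ifit2 lies outside it.

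Of the 13 members with no tested probe, Ifi44 is not analysed here. The other 12 had 16 probes: those of the sensor Ifih1, the factor Irf7, the protease Usp18 and the effectors Ifit1, Oas1a, Oas2, Oas3, Mx1, Mx2, Rsad2, Xaf1 and Rtp4. Among these are genes usually placed among the most inducible by type I interferon. Their probes were above background in 2 of 64 probe-and-array pairs on the STC1 arrays, 1 each for Usp18 and Mx2, and in 0 of 32 on the NT arrays. Differences were not detectable at this signal. All 11 members that rose were, in contrast, above background on all 6 arrays, NT arrays included.

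The 22 members were not shifted equally on the 4 STC1 arrays. The median deviation of the members from their own mean over the 6 arrays was 0.26 and 0.2 with 6 µl of STC1 virus and -0.02 and 0.39 with 18 µl of it, against -0.35 and -0.42 on the NT arrays. The first STC1 array at 18 µl was the lowest of the 4 STC1 arrays for 13 of the 22 members and for 8 of the 11 that rose, while it was the lowest for 30.8% of all genes. It also had the fewest probes above background, 16252, against 17406, 17507 and 17165 on the other STC1 arrays; the part of this in the result was not tested. Members above both NT arrays numbered 16 and 16 with 6 µl of virus, and 15 and 19 with 18 µl, of 22; among all genes 41.3%, 44.4%, 44.2% and 44% lay above both NT arrays on the same 4 arrays. Without that array 10 members passed: Eif2ak2 and Gbp3 no longer did (adjusted p = 0.0683 and 0.0666), and Dhx58 did (0.88, adjusted p = 0.0157). Apol9a was then 1.49, Gbp2 1.33, Oasl2 1.24 and Parp14 1.03 on the log2 scale.

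**Figure D2:**
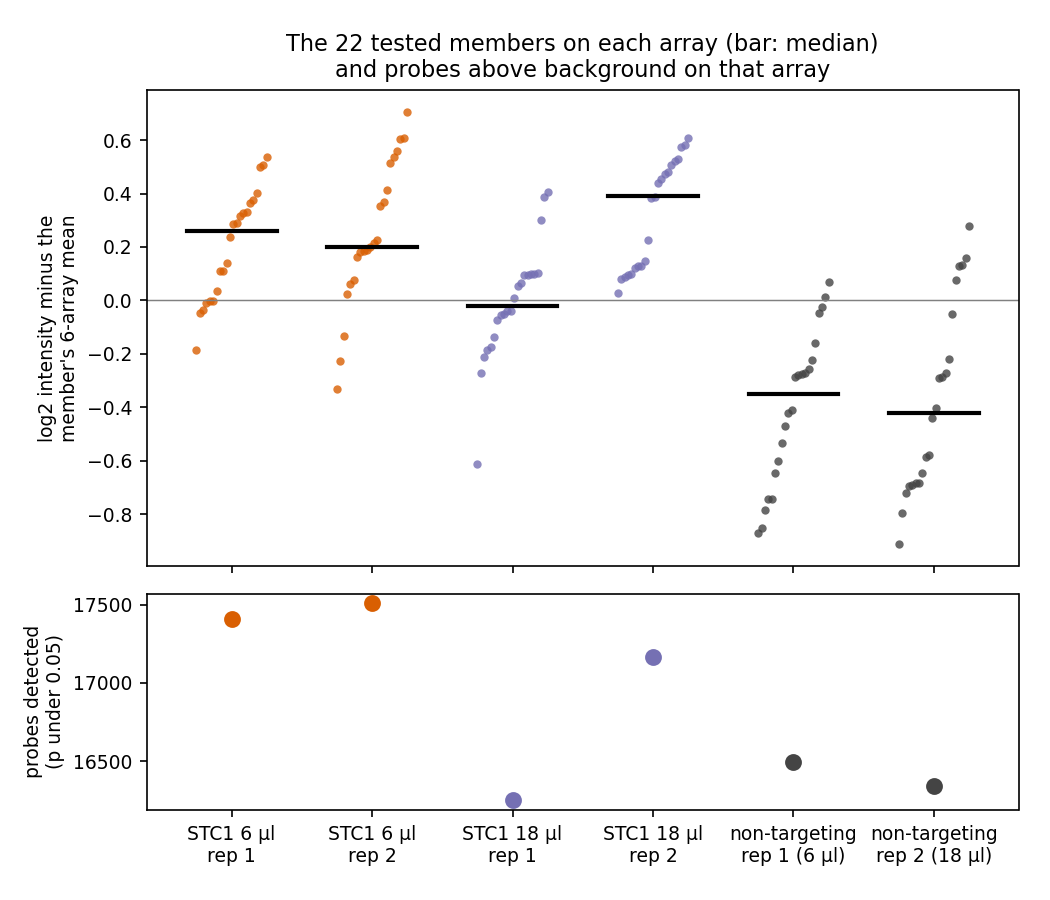
Deviation of each tested member's log2 intensity from its mean over the 6 arrays, 1 point per member and array, with the median of the 22 members marked, above a panel of the probes detected per array. The medians of all 4 STC1 arrays, -0.02 to 0.39, lie above those of the NT arrays, -0.35 and -0.42, and the first STC1 array at 18 µl is the lowest of the 4.

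Taken by virus volume against the same 2 NT arrays, 8 members rose at 6 µl and 7 at 18 µl, and none fell at either. Across all genes 2.16% passed as higher and 1.74% as lower at 6 µl, and 2% and 2.34% at 18 µl. The 7 that passed at both volumes were Apol9a, Apol9b, Gbp2, Ifit2, Oasl2, Samd9l and Uba7, and Parp14 passed at 6 µl. The members' median log2 difference was 0.48 at 6 µl and 0.53 at 18 µl, against 0.025 and 0.037 over all genes. At 18 µl it was 0.28 with no background correction, 0.33 with the authors' values and 0.18 with dim probes kept, and at 6 µl it was 0.19 with dim probes kept and 0.72 with scaling to the median over all probes. Because both sets are taken from the same NT arrays, the shared members are not separate evidence. With 2 arrays against 2, leaving out either STC1 array at 6 µl or either NT array left 0 members passing at 6 µl, and leaving out the second STC1 array at 18 µl or either NT array left 1 at 18 µl.

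Apol9a was 2.8-fold higher than NT at 6 µl and 2.23-fold higher at 18 µl (limma adjusted p = 0.0128 and 0.0242). Gbp2 was 2.51-fold higher at 6 µl and 2.1-fold higher at 18 µl (adjusted p = 0.0111 and 0.0184). Ifit2 ran the other way, at 2.13-fold at 6 µl and 2.42-fold at 18 µl (adjusted p = 0.00971 and 0.00378). Parp14, which encodes the ADP-ribosyltransferase above, was 2.07-fold higher at 6 µl (adjusted p = 0.0363) and gave a log2 difference of 0.69 at 18 µl that did not pass (adjusted p = 0.107). The log2 difference from NT was the larger at 6 µl in 13 of the 22 members.

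Compared directly, no member passed between 18 µl and 6 µl of STC1 virus. Of the 22, 0 passed in either direction in limma and 0 had an unadjusted p under 0.05; across all genes 0% passed. The median difference, 18 µl minus 6 µl, was -0.09 and the range -0.42 to 0.33, with an SE of 0.12 to 0.26. The largest was in Oasl2 (-0.42, adjusted p = 0.723). The fit that set each STC1 group against the NT array of its own volume also gave 0 members whose STC1 effect differed between volumes, against 0% of all genes; 1, Zbp1, had an unadjusted p under 0.05 in that limma fit (adjusted p = 1). With 1 NT array at each volume, that fit has 2 residual degrees of freedom.

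**Figure D3:**
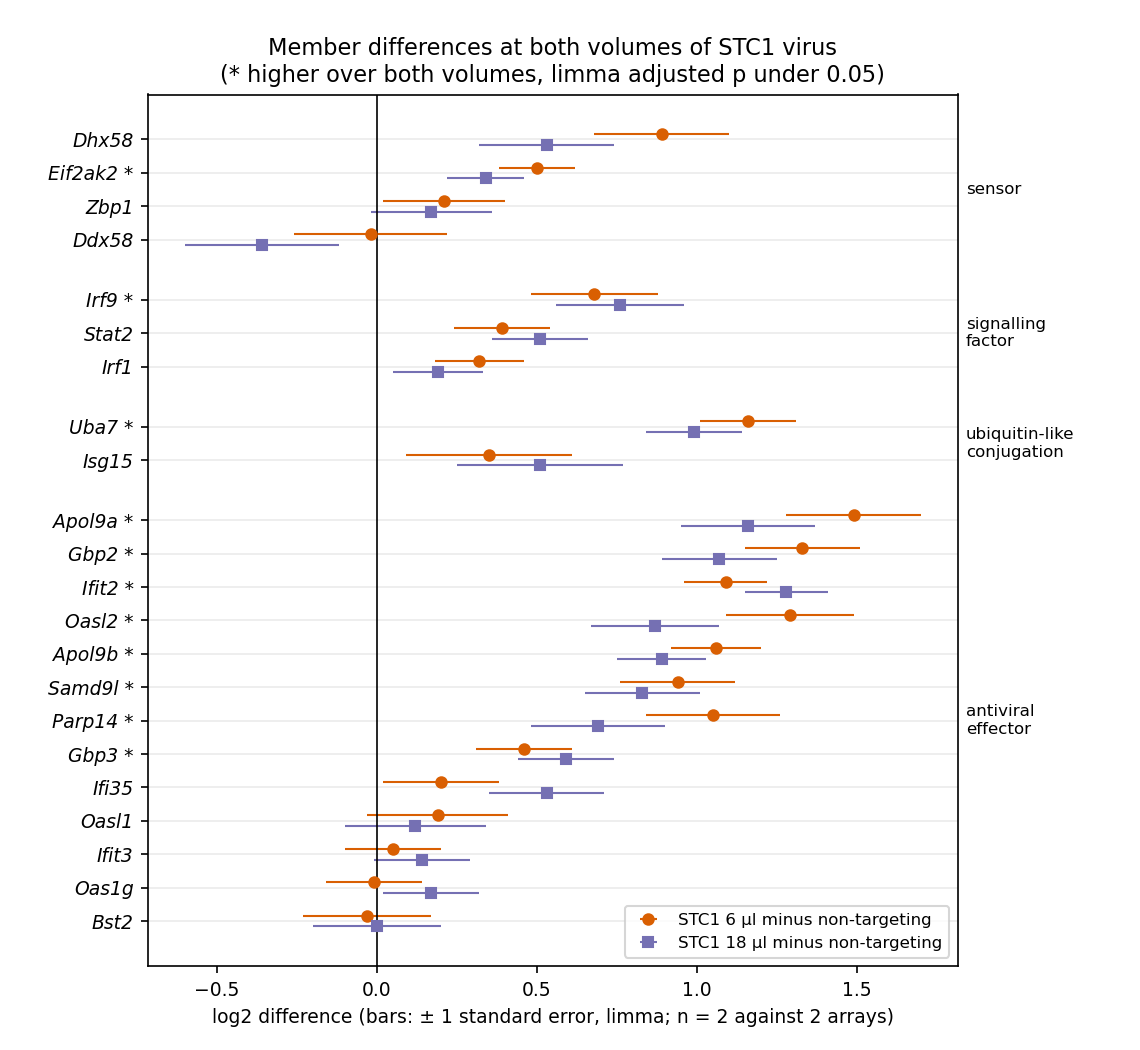
Log2 difference from NT of each of the 22 tested members at 6 µl and at 18 µl of STC1 virus, with bars of 1 SE. Apol9a, Gbp2, Ifit2, Oasl2, Uba7 and Apol9b stand at the upper end at both volumes, between 0.87 and 1.49.

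The rest of the interferon pathway was read from lists of ligands, receptors with JAK and STAT proteins, adaptors and kinases of interferon induction, negative regulators, and further interferon-induced genes. Of these, 64 genes outside the members were tested; 2 rose, 4 fell and 58 did not pass, with a median log2 difference of 0.04, close to the 0.033 of all genes. These counts are near the shares of all genes that passed, 4.45% higher and 3.72% lower, so they are not a result about the lists, and the single genes below are given as values. Those that passed as higher were Sting1 and Ifi27l2a, and as lower Tyk2, Jak2, Traf6 and Ifitm2. With the NT array at 6 or at 18 µl left out, none of the 64 passed as higher, and 1 passed, Ifi27l2a, without either STC1 array at 6 µl or the second at 18 µl. As lower, 1 passed without the NT array at 6 µl (Tyk2), none without that at 18 µl and 2 without the second STC1 array at 6 µl (Tyk2 and Traf6).

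Of 8 listed interferon ligands 7 had a probe, and none was tested: Ifnb1, Ifna2, Ifna4, Ifnk, Ifng and Ifnl3 were above background on no array, and Ifne on 1 STC1 array. Among receptors, JAK and STAT genes 8 of 11 were tested, none rose and 2 fell. Tyk2, the kinase of the type I interferon receptor, read 7.75 and 7.75 with 6 µl of STC1 virus and 7.43 and 7.57 with 18 µl of it, against 8.36 and 8.49 on the NT arrays. It fell 1.74-fold (-0.80, SE 0.11, limma adjusted p = 0.00683), and a second probe gave -0.43 without passing (adjusted p = 0.0559).

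Jak2, the kinase of the interferon gamma receptor, read 10.63 and 10.58 with 6 µl of STC1 virus and 10.19 and 10.46 with 18 µl of it, against 11.13 and 11.15 on the NT arrays. It fell 1.6-fold (-0.67, SE 0.12, limma adjusted p = 0.0166), and its second tested probe fell too (-0.71, adjusted p = 0.0334). The receptor chain gene Ifnar2 gave -0.36 (adjusted p = 0.147) and Jak1 0.24 (adjusted p = 0.333), neither passing.

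Of 16 adaptors and kinases of interferon induction 13 were tested, 1 rose and 1 fell. Sting1, the adaptor of cytosolic DNA sensing, read 6.43 and 6.37 with 6 µl of STC1 virus and 6.41 and 6.33 with 18 µl of it, against 5.63 and 6.01 on the NT arrays, a 1.48-fold rise (0.57, SE 0.13, limma adjusted p = 0.039). The call did not hold with any 1 array left out (adjusted p up to 0.265), where the difference was 0.38 to 0.76. Traf6, a ubiquitin ligase of Toll-like receptor signalling, read 7.81 and 8.12 with 6 µl of STC1 virus and 7.78 and 7.65 with 18 µl of it, against 8.45 and 8.44 on the NT arrays. It fell 1.53-fold (-0.61, SE 0.13, adjusted p = 0.0266), and both its other tested probes passed in the same direction, at -0.72 and -0.64. Cgas, the DNA sensor upstream of Sting1, gave 0.16 (adjusted p = 0.4), Tbk1 -0.13 (adjusted p = 0.499) and Irf3 0.01 (adjusted p = 0.966). One of the other tested probes of Azi2, an adaptor of TBK1, passed as higher at 0.64 (adjusted p = 0.0305), while the brightest probe of that gene gave 0.01.

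None of the 11 tested negative regulators passed in either direction in limma, although 6 had an unadjusted p under 0.05. Nearest to the threshold were the deubiquitinase Cyld (-0.55, adjusted p = 0.0551), the RNA-editing enzyme Adar (0.45, adjusted p = 0.0781) and the STAT phosphatase Ptpn2 (0.40, adjusted p = 0.0834). Of 57 further interferon-induced genes 32 were tested, 1 rose and 1 fell. Ifi27l2a, an interferon-induced mitochondrial protein gene, read 5.09 and 5.20 with 6 µl of STC1 virus and 5.43 and 5.30 with 18 µl of it, against 4.44 and 4.56 on the NT arrays, where it was not above background. The difference was at least 1.42-fold (limma adjusted p = 0.009). Its probe met the detection rule only through the STC1 arrays, where it is high, so this p and its place among the 2 genes that passed as higher are conditioned on the difference.

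Ifitm2, which encodes a membrane protein that hinders virus entry, read 10.14 and 10.02 with 6 µl of STC1 virus and 9.78 and 10.01 with 18 µl of it, against 10.73 and 10.73 on the NT arrays. It fell 1.67-fold (-0.74, SE 0.12, limma adjusted p = 0.011). The GTPase gene Igtp gave the largest positive difference of the list, 0.77, and did not pass (SE 0.2, adjusted p = 0.0522). Thus 11 of 22 members passed as higher, against 2 of the 64 other pathway genes; the members and the other lists were chosen with earlier results of these data known, so the contrast between them was not tested.

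**Figure D4:**
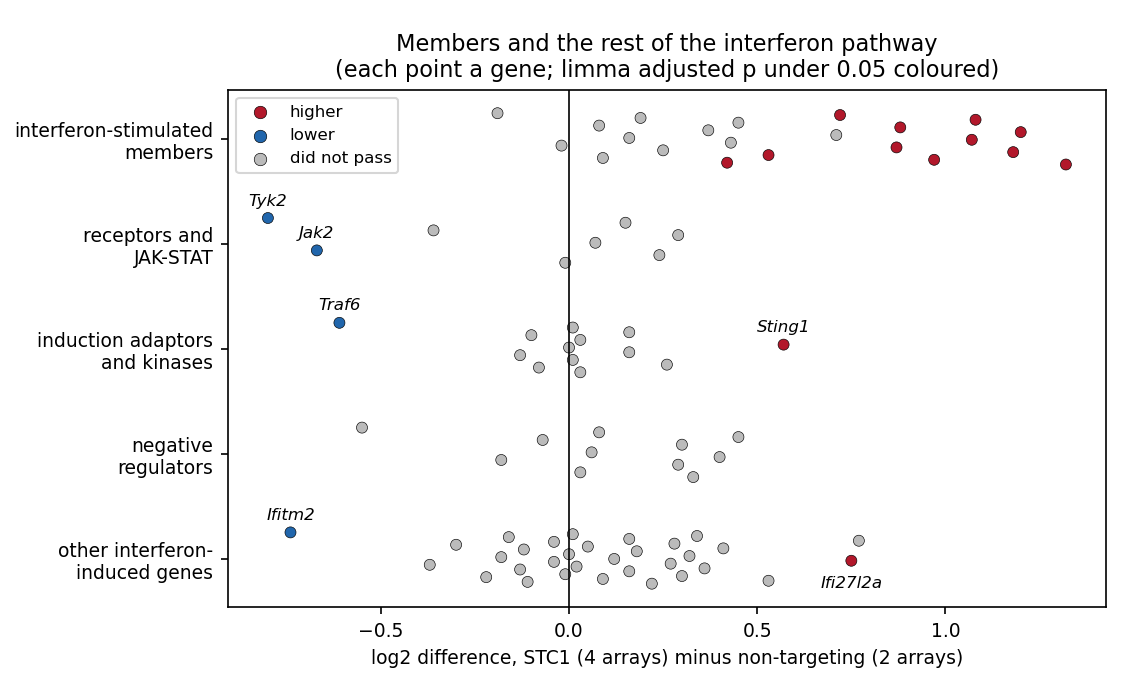
Log2 difference, STC1 minus NT, of the 22 tested members in 1 row and of the 64 tested pathway genes outside the members by list, 1 point per gene, with genes that passed coloured and, outside the members, named. The members' points reach 1.32, while the other pathway genes lie between -0.80 and 0.77.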

How the data were processed

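RNA of 6 samples was labelled and hybridised to Illumina bead arrays; per the labels' protocols, RNA came from a spin-column kit and was biotinylated as cRNA. The table the authors deposited holds a bead intensity per probe and array, not normalised, and beside each a detection p-value, per the file headers; its steps imply 936 negative controls. A second deposited table holds log2 values, found here to be the quantile-normalised log2 of those intensities (median absolute difference at most 0.00015, median 5.777 in each column); it served as an alternative. Scanner software, chip and scan batch: not given in the sources used here.

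Intensities were background-corrected, offset by 16, quantile-normalised and put on log2 by neqc (limma 3.58.1, R 4.3.3). The offset understates folds of dim probes, and quantile normalisation removes a shift shared by most transcripts. Probes detected on at least 2 of 6 arrays were tested, 18076 of 45281. Symbols came from the platform annotation, which lists 34903 probes (34885 with 1 symbol, 18 with several), 34807 of them updated through identifiers of a RefSeq table; 15408 tested probes named 9754 genes. The brightest tested probe stood for a gene.

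limma's lmFit and eBayes were fitted to all tested probes with 1 mean for each of 3 groups (3 residual and 5.66 prior degrees of freedom), two-sided, with Benjamini-Hochberg adjustment over all of them; genes that passed had an adjusted p under 0.05. For a probe at background on all arrays of a group, the fold is a bound: the brighter group's mean over a floor, which on each array was the lowest detected signal or, if higher, that of the probe. Promoter windows came from RefSeq, GRCm38.p6. All 35 members are accounted for, and of the pathway lists those are named that passed, lay nearest the threshold or are core to the pathway. The members and lists were chosen with earlier results of these data known. The procedure was tested on simulated data. Alternatives covered the background, scaling, filter, choice of probe, blocks and each array left out.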

Additional observations from a re-analysis of the deposited data

Results flagged for a closer look

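In 3 of the 22 tested members 1 STC1 array lay far from the other 3, by the ratio of its gap to the range of the 4, which passed Dixon's critical value. The ratio was 0.906 in Apol9b, 0.891 in Gbp2 and 0.833 in Oasl2. In each the low array was the first STC1 array at 18 µl, at 6.71, 7.06 and 7.13 on the log2 scale, and it still lay above both NT arrays, of which the higher read 5.97, 6.33 and 6.61. Chance flags about 1 in 20 such groups, and these members share their arrays. Without that array the log2 difference from NT was 1.05 in Apol9b, 1.33 in Gbp2 and 1.24 in Oasl2, and all 3 passed.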

How the results depend on the processing

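The count of members higher in STC1 cells, 11, was 10 to 12 under every other setting tried except those given here. No member passed as lower under any. Of the 11 themselves, 9 to 11 passed in those other settings. Some counts take in Dhx58, which met the detection rule only through the STC1 arrays. They are those with no background correction, the authors' values, the mean over a gene's probes, the replicate block and scaling over all probes. Counts with 1 STC1 array left out take it in too. With all 6 arrays kept and 10 to 12 members higher, the share of all genes that passed as higher was 3.98% to 8.27%. With no filter on dim probes 34 members were tested and 7 passed as higher (4 at 6 µl and 3 at 18 µl). In that setting 1.29% of all genes passed as higher, against 4.45% in the main test. The members' median log2 difference was then 0.17, and it was 0.28 with no background correction. Scaling to the median over all probes, chosen after seeing the data, gave 15 higher, against 13.3% of all genes, and 14 at 6 µl. With dim probes kept, Irf9 (adjusted p = 0.106), Parp14 (0.0905) and Samd9l (0.0532) did not pass in limma. Arrays left out 1 at a time gave 5 to 10 members higher over both volumes, 0 to 9 at 6 µl and 1 to 8 at 18 µl. Of the other pathway genes, 5 were higher with no background correction, 5 with the authors' values, 1 when dim probes were kept and 10 with scaling over all probes, and 0 to 2 higher and 0 to 5 lower with 1 array left out. The cause of these shifts was not tested, beyond the fewer arrays and the larger number of probes tested. Members that did not pass changed sign: Ifit3 was -0.04 with median scaling over tested probes and Bst2 0.09 with scaling over all probes. With 1 array left out Zbp1 ranged from -0.1 to 0.47, Ifit3 from -0.1 to 0.29, Oas1g from -0.1 to 0.25 and Oasl1 from -0.03 to 0.34, each lowest without the NT array at 6 µl, and Bst2 from -0.17 to 0.14. Replicate numbers shared only a number (correlation of same-numbered deviations -0.00204 and 0.00403 against STC1 at 6 µl, and -0.125 between STC1 at 18 µl and NT). With the replicate number as a block 10 members were higher, against 3.98% of all genes. Of these, 9 were among the 11 (Eif2ak2 and Gbp3 did not pass, limma adjusted p = 0.0699 and 0.0591). The other was Dhx58 (limma adjusted p = 0.0272), whose p is conditioned on detection through the STC1 arrays. With the numbers of the STC1 arrays at 18 µl crossed, added after seeing the data, 10 members were higher, against 4.05% of all genes. Probes near background, with 12 members untested, limit what these arrays can show.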
